A study of Mus musculus with 33 samples.

Results

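The contacts of INT2, an element between the V genes and the Tcrd gene segments of the mouse Tcra-Tcrd locus, were compared between DP thymocytes and liver cells. The 5 libraries were chosen by their titles, as those of the INT bait with the intact genotype in either tissue, and make up 5 of the 33 libraries of the series. DP thymocytes gave 3 libraries and liver cells gave 2. The series used 3C-HTGTS, a proximity ligation assay that starts from 1 chosen site (the bait) and reads the fragments joined to it, with several baits, cell types and genotypes. All 5 libraries came from C57BL/6 mice of the genotype CBE+/+Rag1-/-, so neither tissue can rearrange its antigen receptor genes and both carry the CTCF-binding element that other mice of the series lack. Rag1-/- thymocytes stop before the DP (CD4+CD8+) stage, and for the thymus libraries mice aged 3 weeks were injected with 150 µg of anti-CD3 antibody, which drives the cells to that stage, and used 10 days later. The age of the liver mice and the number of animals behind a library are not given in the sources used here. The thymocytes were passed through a mesh and pelleted, with no sort described, and the liver libraries are of whole filtered liver. A contact library measures no expression, so the label of neither tissue could be checked against marker genes. The authors describe the replicates of their DP profiles as biological replicates and those of liver as experimental replicates. Whether replicates came from separate animals is not stated, so the p-values below measure the spread between these libraries.

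The Tcra-Tcrd locus holds a long array of V genes, then the Dδ, Jδ and Cδ segments of Tcrd, then the Jα array and the constant gene Trac with the enhancer Eα. In DP thymocytes Tcra recombination joins a proximal Vα gene to a proximal Jα gene near the TEA promoter (TEAp), although the Tcrd segments lie between them. INT1 and INT2 are CTCF-binding elements on the V side of Tcrd, and loops between CTCF-bound sites are formed by cohesin, which extrudes chromatin until it is stopped.

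The bait was captured with a primer at chr14:54065764-54065783 (mm10, minus strand), in intergenic sequence between Trdv3 and Trdv4 where GENCODE vM21 places no gene. The stretch from this primer to the nearest cut site of the restriction enzyme MboI is shown because every read begins in it. It is read on the minus strand from the reference genome (chr14:54065620-54065783, 164 bases), with the MboI site in capitals.

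INT2 bait: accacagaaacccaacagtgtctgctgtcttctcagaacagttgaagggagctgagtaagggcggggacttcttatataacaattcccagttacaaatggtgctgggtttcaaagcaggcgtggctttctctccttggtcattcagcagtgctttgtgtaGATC

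The pattern CCNNNAGNNGGC, letters that resemble the core of a CTCF-binding sequence, was searched on both strands of the region of analysis, and it stood in 39 of 112 bins of 5 kb. That is 34.8% of these bins, against 35.8% of all 24289 bins of chromosome 14. Matches are shown for a choice of bins, each on its own strand with the pattern in capitals. They begin at chr14 positions 53806402 (Trav17), 53834605 (Trav18), 53875364 (Trav21-dv12), 53881442 (Trdv1), 54059964 (a bait-holding bin), 54153795 (TEAp) and 54239239 (Dad1). The match in a bait-holding bin lies in chr14:54055001-54060000. Neither the bin of the primer (chr14:54065001-54070000) nor the bin next to it (chr14:54060001-54065000) holds a match. The bin chr14:54055001-54060000 also holds a match at 54056506 on the plus strand, and the Dad1 bin 1 at 54238850 on the minus strand. A match is a description of these letters only.

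Trav17 bin, plus strand: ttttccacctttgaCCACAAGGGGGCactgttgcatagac
Trav18 bin, plus strand: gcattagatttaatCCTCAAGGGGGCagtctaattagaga
Trav21-dv12 bin, plus strand: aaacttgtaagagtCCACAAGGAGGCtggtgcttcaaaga
Trdv1 bin, plus strand: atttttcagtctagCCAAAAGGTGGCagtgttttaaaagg
bait-holding bin, plus strand: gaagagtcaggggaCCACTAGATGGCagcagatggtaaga
TEAp bin, minus strand: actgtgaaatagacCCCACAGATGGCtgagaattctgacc
Dad1 bin, plus strand: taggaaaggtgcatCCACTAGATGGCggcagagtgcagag

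Each counted read joined 2 fragments in addition to the bait, and the value of a bin pair is the number of reads whose fragments lay in those bins. The region of analysis was chr14:53740001-54300000, from the V genes upstream of Trav17 to sequence downstream of Dad1. It held 105986, 256778 and 159846 reads in DP replicates 1 to 3 and 29910 and 12745 reads in liver replicates 1 and 2. The DP libraries were thus deeper than the liver libraries in every case, and no removal of PCR copies is described for the reads. Every statement below is about shares of a library's reads, and 3 reads, the upper limit that a count of 0 allows, make up between 0.00117% and 0.0235% of a library's reads in the region. That limit covers counting error only. With 3 libraries against 2, an exact two-sided permutation test cannot give a p below 0.1.

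Reads within the bait-holding bins made up less of the DP libraries, and pairs of a bait-holding bin with an upstream bin more. Partners more than 20 bins upstream held 12.5% of the reads in DP and 4.65% in liver by the means, while those more than 20 bins downstream held 10.58% and 11.04%, with overlap (exact permutation p = 0.5). Pairs with both fragments in the bait-holding bins (chr14:54055001-54070000) held 21.5%, 31.5% and 28.9% of the reads of the 3 DP libraries and 39.9% and 44.9% of the liver libraries. All liver values lay above all DP values, and the means were 27.3% ± 5.18 (SD, n = 3) and 42.4% ± 3.56 (SD, n = 2), with an exact permutation p of 0.1. Pairs of a bait-holding bin with an upstream bin held 25.1%, 21.2% and 21.3% in DP and 14.1% and 14.4% in liver, without overlap (exact permutation p = 0.1). With each occupied bin pair counted a single time this difference turned to -24.1 percentage points. Pairs without a bait-holding bin were 1490, 1400 and 1866 of the occupied pairs in DP and 135 and 42 in liver. Pairs of a bait-holding bin with a downstream bin held 40.8%, 37.5% and 37.9% in DP and 43.5% and 38.8% in liver, and these ranges overlapped (exact permutation p = 0.4).

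**Figure D1:**
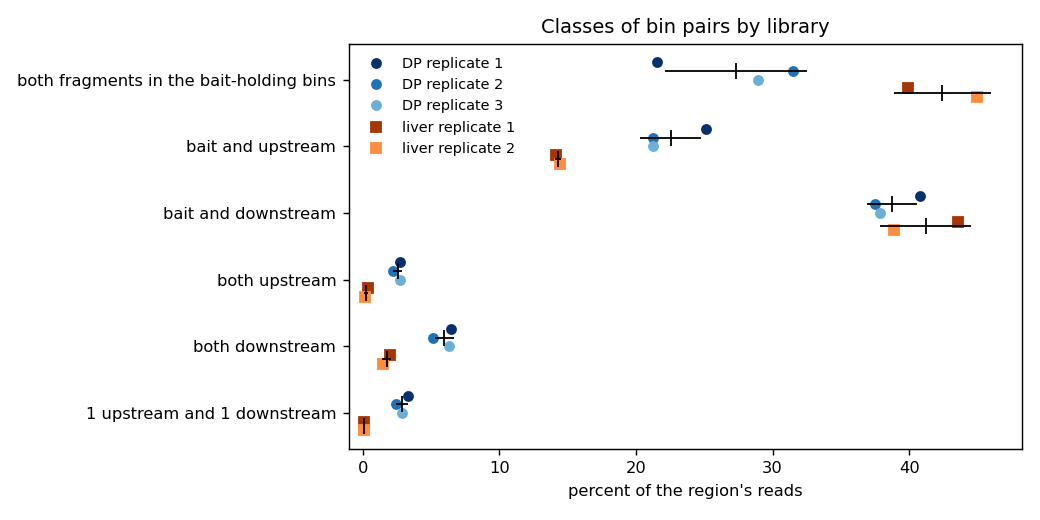
Share of the region's reads (x axis, percent) in 6 classes of bin pairs, 1 point per library (circles for DP, squares for liver), with black ticks and lines for the group mean ± SD (n = 3 and 2). Liver lies to the right only for pairs within the bait-holding bins and, with overlap, for bait and downstream, and 1 upstream and 1 downstream fragment are found at 2.46% to 3.32% in DP and 0.0802% to 0.118% in liver.

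Reads with no fragment in the bait-holding bins differed more. They made up 12.6%, 9.82% and 11.9% of the DP libraries and 2.44% and 1.79% of the liver libraries, a ratio of the means of 5.41. Each of these reads also holds the bait, so it joins INT2 to 2 other sites. Among them, pairs of 1 upstream and 1 downstream fragment held 3.32%, 2.46% and 2.90% of the region's reads in DP and 0.0802% and 0.118% in liver. The DP mean was 29.3 times the liver mean. The liver values rest on few reads, since all reads without the bait-holding bins numbered 729 and 228 there. Pairs with both fragments upstream were 9.75 times higher and pairs with both fragments downstream 3.41 times higher in DP by the means, and in each of these classes all DP libraries lay above all liver libraries (exact permutation p = 0.1). With each occupied bin pair counted a single time the difference for both fragments downstream turned to -0.56 percentage points (exact permutation p = 0.8).

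The partners of the bait were then compared bin by bin. Reads with 1 fragment in the bait-holding bins and the other elsewhere in the region are called the stripe below, and they numbered 69876, 150690 and 94534 in DP and 17246 and 6789 in liver. Reads with neither fragment in the bait-holding bins also join the bait to other sites but are not in the stripe. A partner bin's share below is thus its share of the stripe, not of all contacts of the bait. Along the stripe the profiles of replicates were close to each other, with Pearson correlations of log2 shares over bins of 0.961 to 0.968 between DP libraries, 0.866 between the liver libraries, and 0.690 to 0.768 between tissues. These points share the bait and neighbouring bins, so the correlations are a description. Of 106 partner bins tested with edgeR (quasi-likelihood test, Benjamini-Hochberg adjusted p under 0.05), 42 were higher in DP, which is 39.6% of those tested, and 24 were lower, which is 22.6%. The 106 bins had a median log2 fold change of 0.42. Since the shares add up to a whole, the balance of directions depends on the scaling, and TMM normalization gave 31 higher and 34 lower bins with a median of 0.13, and DESeq2 gave 27 and 32. The total of the whole deposited matrix as library size moved it the other way, to 46 higher and 16 lower bins with a median of 0.56.

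**Figure D2:**
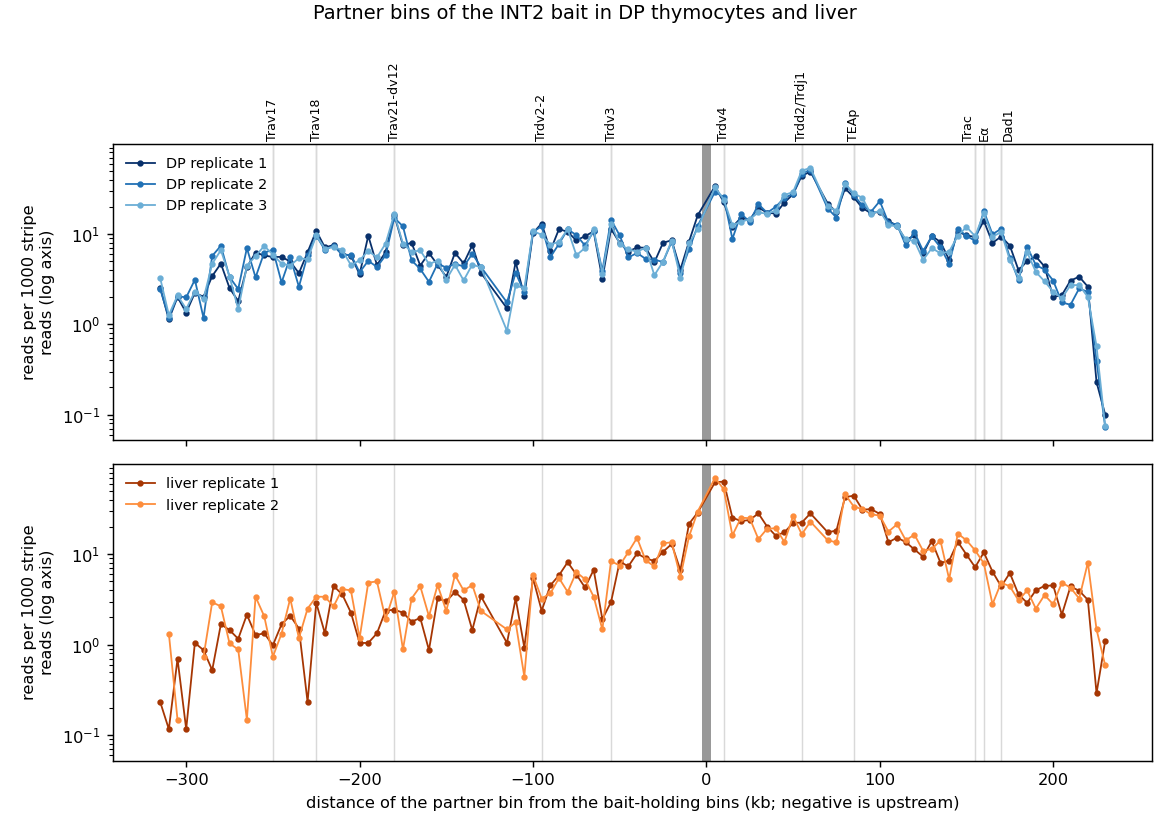
Reads of each partner bin per 1000 stripe reads (y axis, log scale) against its distance from the nearest bait-holding bin (x axis, kb), with 1 line per library, DP above and liver below. Bins with 0 reads are left out and the grey band marks the bait. In DP a peak stands at Trdd2 and the bin after it, at 44.2 to 53.9 reads per 1000, where liver has 16.6 to 28.4.

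The changes followed position along the locus. More than 50 kb upstream of the bait, 35 of 51 bins were higher in DP and none was lower, with a median log2 fold change of 1.25. Within 50 kb upstream, 6 of 10 bins were lower and none was higher. Within 25 kb downstream all 5 bins were lower. From there into Trdc (30 to 75 kb downstream) 3 of 9 bins were higher and none was lower. From the end of Trdc through the Jα array to Trac (80 to 155 kb) 11 of 16 bins were lower and none was higher, and then Eα and the next 2 bins were all higher. Of these, the bin after Eα (log2 fold change 0.89, edgeR adjusted p = 0.0181) did not pass with TMM normalization (0.0573), with DESeq2 (0.152), without DP replicate 2 (0.0854) or without liver replicate 2 (0.0782), and its log2 fold change ran from 0.50 to 1.70 with a liver library left out. These counts stand against 39.6% higher and 22.6% lower over the whole region.

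**Figure D3:**
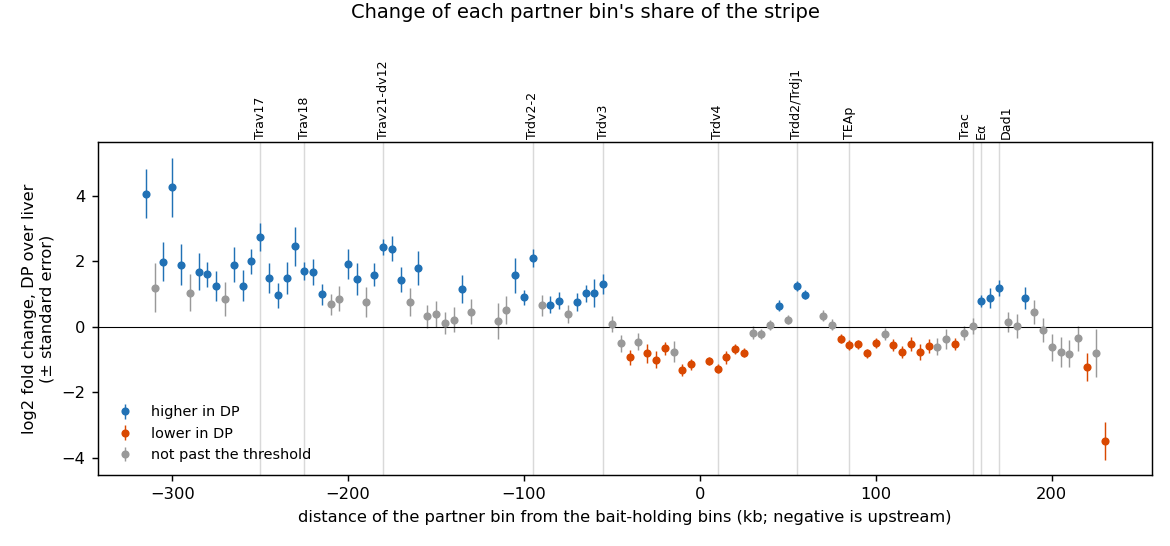
Log2 fold change of each partner bin's share of the stripe, DP over liver, with its standard error (y axis) against the distance from the nearest bait-holding bin (x axis, kb). Blue bins were higher and orange bins lower in DP at an edgeR adjusted p under 0.05, and the direction changes near 50 kb upstream, near 30 kb and 80 kb downstream and again at Eα.

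Close to the bait, Trdv4, a Vδ gene just downstream of INT2, spans the bins chr14:54070001-54075000 and chr14:54075001-54080000. Its 2 bins together held 5.63%, 5.49% and 5.71% of the stripe in DP and 12.7% and 12.3% in liver. Both liver libraries were thus more than 2 times as high as any DP library, and the 2 bins fell by 1.05 ± 0.13 and 1.28 ± 0.13 (SE) on the log2 scale, with edgeR adjusted p of 5.81e-06 and 1.05e-06. On the other side of the bait, the bin chr14:54045001-54050000 held 8.24, 6.76 and 7.85 reads per 1000 stripe reads in DP and 21.7 and 15.8 in liver (log2 fold change -1.32, edgeR adjusted p = 2.31e-05).

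Among the V genes, Trav21-dv12, which can be used as a Vα or a Vδ gene, had the clearest difference. Its bin (chr14:53875001-53880000, 180 kb upstream of the bait) held 16.2, 15.1 and 16.6 reads per 1000 stripe reads in DP and 2.44 and 3.83 in liver. The DP libraries lay close together and far above both liver libraries, and the log2 fold change was 2.43 ± 0.24 (SE, edgeR adjusted p = 7.84e-07). The next bin holds Trdv1, a Vδ gene, with 7.50, 12.2 and 7.84 reads per 1000 in DP and 2.26 and 0.884 in liver. It was higher in all DP libraries, though DP replicate 2 stood apart from the other two (log2 fold change 2.39 ± 0.38, edgeR adjusted p = 7.65e-05). The log2 fold change was 3.38 without liver replicate 1 and 2.02 without liver replicate 2.

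Trav17, the first gene of the proximal V region, lay 250 kb upstream of the bait, in the bin chr14:53805001-53810000. Its reads per 1000 were 5.55, 6.68 and 5.90 in DP and 0.986 and 0.736 in liver. The groups were well apart, with a log2 fold change of 2.75 ± 0.43 (SE, edgeR adjusted p = 5.84e-05). Trav18 (chr14:53830001-53835000) had 10.8, 9.60 and 9.62 reads per 1000 in DP and 2.90 and 3.39 in liver, also without overlap (log2 fold change 1.70 ± 0.27, edgeR adjusted p = 7.65e-05). For Trav19 the DP libraries, at 5.85 to 6.63, lay above the liver libraries, at 3.60 and 4.12, but the log2 fold change of 0.69 had an edgeR adjusted p of 0.0655 and did not pass.

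Farther upstream, the bins of Trav16 and Trav13-4-dv7 had the largest fold changes among the bins that passed and did not overlap. Trav16 held 178, 372 and 307 reads in DP and 4 and 0 in liver (log2 fold change 4.07 ± 0.74, edgeR adjusted p = 0.000279). Trav13-4-dv7 held 94, 299 and 140 reads in DP and 2 and 0 in liver, so that its share was 20.3 times higher in DP with a 95% counting interval (Clopper-Pearson) from 5.60 to 168. Liver reads were too few at both bins for the size of the difference to be fixed.

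Nearer to the bait, the Vδ gene Trdv2-2 (chr14:53960001-53965000, 95 kb upstream) held 13.1, 12.2 and 9.78 reads per 1000 in DP and 2.38 and 3.24 in liver. All DP libraries were at least 3 times as high as either liver library, and the log2 fold change was 2.11 ± 0.28 (SE, edgeR adjusted p = 1.21e-05). Trdv3, annotated as a pseudogene and 55 kb upstream, held 11.4, 14.4 and 12.9 in DP and 2.96 and 8.40 in liver. The liver libraries differed widely from each other here, and the log2 fold change of 1.32 (edgeR adjusted p = 0.00243) became 0.62 without liver replicate 1 and 2.13 without liver replicate 2. Trav23 held 10.5 to 11.3 reads per 1000 in DP and 8.18 and 3.83 in liver (edgeR adjusted p = 0.0151), a call that TMM normalization (adjusted p = 0.0602) and DESeq2 (adjusted p = 0.175) did not make. It was also lost without DP replicate 2 (adjusted p = 0.0642) and without liver replicate 2 (adjusted p = 0.0731).

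In the Tcrd interval the differences ran in both directions. Trdd2 and Trdj1, a Dδ and a Jδ segment, share the bin chr14:54120001-54125000, 55 kb downstream of the bait. This bin held 44.2, 46.6 and 50.2 reads per 1000 in DP and 22.4 and 16.6 in liver. Every DP library was nearly 2 times the higher liver library or more, and the log2 fold change was 1.24 ± 0.15 (SE, edgeR adjusted p = 5.81e-06). The next bin, between Trdj1 and Trdj2, was the highest of the whole stripe in DP, with 48.9, 51.3 and 53.9 reads per 1000, against 28.4 and 23.0 in liver (log2 fold change 0.99 ± 0.14, edgeR adjusted p = 2.31e-05). In liver the highest bins were those of Trdv4 next to the bait.

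Trdd1, the other Dδ segment, held 22.3, 25.1 and 27.0 reads per 1000 in DP and 17.5 and 13.7 in liver. The libraries did not overlap and the log2 fold change of 0.65 had an edgeR adjusted p of 0.00298, which was 0.0697 with TMM normalization and 0.154 with DESeq2. For Trdj2 (log2 fold change 0.34, edgeR adjusted p = 0.0658) and the first bin of the constant gene Trdc (0.06, adjusted p = 0.763) no difference passed. The bin of the end of Trdc and of Trdv5, a Vδ gene downstream of it, held 31.97, 36.3 and 36.0 in DP and 43.0 and 46.3 in liver. Liver was higher in every library, with a log2 fold change of -0.36 (edgeR adjusted p = 0.0255) that passed without liver replicate 1 (adjusted p = 0.0151) and in none of the other 4 fits with a library left out (0.0506 to 0.130).

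TEAp, the promoter at the upstream end of the Jα array, held a large share of the stripe in both tissues and a larger one in liver. This holds for the stripe only. Reads of TEAp with no fragment in the bait-holding bins are not in it, and numbered 222, 459 and 279 in DP and 7 and 0 in liver. Its bin (chr14:54150001-54155000, 85 kb downstream) held 25.5, 26.8 and 28.3 reads per 1000 in DP and 44.5 and 33.7 in liver. Both liver libraries lay above all DP libraries, and the log2 fold change was -0.55 ± 0.14 (SE, edgeR adjusted p = 0.00348). Without liver replicate 1 the adjusted p was 0.0585 and the log2 fold change -0.33. Traj61 to Traj56, the first Jα segments, share the next bin, which held 19.3, 20.7 and 25.03 in DP and 31.2 and 31.7 in liver (log2 fold change -0.53, edgeR adjusted p = 0.00538). The bin of Traj55 to Traj53 fell by 0.81 (edgeR adjusted p = 0.000158). So all 3 bins of the window of TEAp and the proximal Jα segments were lower in DP, with 6.17%, 6.52% and 6.98% of the stripe against 10.7% and 9.31% in liver.

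Through most of the distal Jα array the shares stayed lower in DP, with a median log2 fold change of -0.52 against -0.55 for the window of TEAp and the proximal Jα segments. Of the 12 bins from there to Trac, 7 were lower in DP and none was higher, with fold changes between -0.77 and 0.02 on the log2 scale. The bin of Traj18 held 6.11 to 8.13 reads per 1000 in DP and 8.06 and 14.1 in liver and missed the threshold (edgeR adjusted p = 0.0503). For Traj1 (adjusted p = 0.406) and Trac (adjusted p = 0.932) the ranges of the groups overlapped.

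At the 3′ end of the locus the order turned again. The bin of Eα (chr14:54225001-54230000, 160 kb downstream), the enhancer of Tcra, held 13.996, 17.9 and 16.9 reads per 1000 in DP and 10.5 and 7.95 in liver. All DP libraries were above both liver libraries, with a log2 fold change of 0.79 ± 0.19 (SE, edgeR adjusted p = 0.00269), which had an adjusted p of 0.0250 with TMM normalization and 0.0884 with DESeq2. Dad1, a broadly expressed gene that lies next to Eα, spans 4 bins. In its first bin here (chr14:54235001-54240000) DP had 9.36, 11.4 and 10.5 reads per 1000 and liver 4.41 and 4.86 (log2 fold change 1.182 ± 0.25, edgeR adjusted p = 0.000929). The next 2 bins of Dad1 did not pass, with log2 fold changes of 0.15 and 0.02 that turned negative with TMM normalization and DESeq2. The bin where Dad1 meets Abhd4 passed (0.88, edgeR adjusted p = 0.0333), but not without DP replicate 2 (0.121), DP replicate 3 (0.0886) or liver replicate 1 (0.171), nor with TMM normalization (0.151). Near the end of the region 2 bins were lower in DP, chr14:54285001-54290000 with a log2 fold change of -1.22 (edgeR adjusted p = 0.0215) and chr14:54295001-54300000 with -3.48 on 7, 11 and 7 reads in DP and 19 and 4 in liver (edgeR adjusted p = 0.000109). The liver libraries differed at the first of these bins, with 3.13 and 8.10 reads per 1000, and its call was lost without liver replicate 2 (log2 fold change -0.45, adjusted p = 0.364), DP replicate 2 (0.0672) or DP replicate 3 (0.0505).

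**Figure D4:**
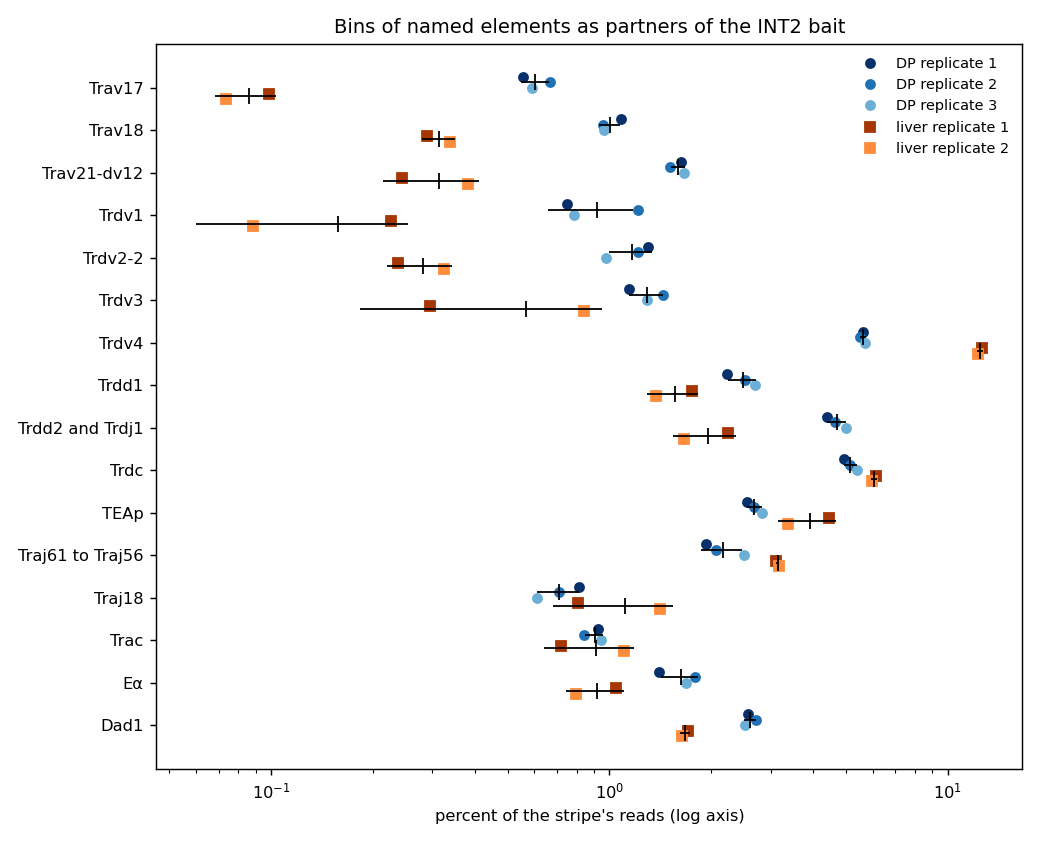
Share of the stripe's reads (x axis, percent, log scale) in the bins of 16 named elements from upstream to downstream, 1 point per library (circles for DP, squares for liver), with black ticks and lines for the group mean ± SD (n = 3 and 2). DP lies to the right at the V genes, Trdd1, Trdd2, Eα and Dad1, liver at Trdv4, Trdc, TEAp and Traj61 to Traj56, and the groups overlap at Traj18 and Trac.

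To take out the slope of the profile, the count of a bin was also divided by the mean count of the bins that lie 2 and 3 bins away on each side in the same library, a measure added after the data had been seen. At Trdd2 this ratio was 2.90, 2.90 and 3.07 in DP and 1.76 and 1.40 in liver. The bin 2 bins downstream of Trdd2 held no stripe reads in any library and counted as 0. This raised the Trdd2 ratio by the same factor in all libraries, so its size is overstated in both tissues while the order of the libraries is unchanged. At Trav21-dv12 it was 2.45, 3.25 and 2.67 in DP and 1.58 and 0.874 in liver, and at Eα 1.51, 1.89 and 1.82 in DP and 1.22 and 0.785 in liver. These 3 elements therefore stood further above their surroundings in every DP library than in any liver library (exact permutation p = 0.1 for each). TEAp stood above its surroundings in both tissues, at 1.38, 1.43 and 1.55 in DP and 1.86 and 1.64 in liver, and here liver was the higher group (exact permutation p = 0.1). For Trdv1 the groups overlapped, with 1.28 to 2.84 in DP and 1.38 and 0.264 in liver.

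The 3 bait-holding bins did not contribute alike. The bin of the primer (chr14:54065001-54070000) carried 92.7%, 93.1% and 92.5% of the stripe in DP and 99.1% and 99.6% in liver. The bin next to it on the upstream side (chr14:54060001-54065000) carried 6.33%, 6.11% and 6.49% in DP, which is 4422, 9208 and 6135 reads, and 0.568% and 0.368% in liver, which is 98 and 25 reads. The mean share of this bin was thus 6.31% ± 0.19 (SD, n = 3) in DP and 0.468% ± 0.14 (SD, n = 2) in liver, without overlap (exact permutation p = 0.1). In DP its partners lay to 37.6% in the Tcrd interval, as did 37.6% of those of the primer's bin, and to 28.0% against 32.5% in the proximal V region. In DP the window of TEAp and the proximal Jα segments took 8.55%, 8.83% and 10.01% of the reads of this neighbouring bin. It took 5.95%, 6.37% and 6.74% of those of the primer's bin, lower in each DP library. The order was the same in liver, so it was not particular to DP. There the window took 30.6% and 40% of the neighbouring bin's reads, on only 30 and 10 reads. It took 10.57% and 9.20% of the reads of the primer's bin in liver. In DP, Eα took 3.26%, 3.84% and 2.10% of the reads of this neighbouring bin. It took 1.28%, 1.65% and 1.66% of those of the primer's bin, a lower share in each of the 3 DP libraries.

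Over all bin pairs of the region, 86 of 1506 tested pairs were higher in DP (5.71%) and 14 were lower (0.93%) by edgeR with a Benjamini-Hochberg adjusted p under 0.05. Of the 86, 68 had 1 fragment in the bait-holding bins (of 276 tested), 2 had both there (of 6 tested), and 16 had none (of 1224 tested). The bin next to the primer's bin took part in 33 of the 68, out of 102 tested pairs. The primer's bin took part in 34 out of 106, a similar proportion. Of the 33 pairs of the neighbouring bin, 22 had no read in liver. Liver had no read in 1241 of the 1506 pairs. No pair passed without DP replicate 2, the deepest library, where 155 pairs were higher and 18 lower at an unadjusted p under 0.05. TMM normalization gave 74 higher and 37 lower pairs and DESeq2 gave 53 and 37.

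The pair of that neighbouring bin with the bin of Trdd2 and Trdj1 had the largest fitted change, with 299, 478 and 443 reads in DP and 0 and 0 in liver. Against a floor of 3 reads over both liver libraries its share was at least 33.2-fold higher in DP (edgeR adjusted p = 1.94e-07). The same bin paired with Eα had 144, 354 and 129 reads in DP and none in liver, at least 17.1-fold higher (edgeR adjusted p = 2.79e-05). Paired with the first bin of Trdv4 it had 183, 168 and 134 reads in DP and none in liver, at least 13.2-fold higher (edgeR adjusted p = 0.000106), while the primer's bin paired with the same bin of Trdv4 was lower in DP. That last pair held 206, 165 and 186 of 10000 reads in DP and 362 and 374 in liver (log2 fold change -0.99 ± 0.19, edgeR adjusted p = 0.00127). The neighbouring bin as a whole carried 6.31% of the stripe in DP and 0.468% in liver by the means, with 98 and 25 liver reads. Whether its single pairs changed beyond that difference was not tested.

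The other lower pairs with the largest changes among those that did not overlap were also pairs of the primer's bin. Its pair with the second bin of Trdv4 held 136, 142 and 137 of 10000 reads in DP and 366 and 279 in liver (log2 fold change -1.22, edgeR adjusted p = 0.000160). Its pairs with chr14:54045001-54050000 and chr14:54050001-54055000, just upstream of the bait, fell by 1.27 and 1.08 on the log2 scale (edgeR adjusted p of 0.00105 and 0.00247). Its pair with the last bin of the region, chr14:54295001-54300000, rested on 7, 11 and 7 reads in DP and 19 and 4 in liver (log2 fold change -3.24, edgeR adjusted p = 0.0321), and it did not pass without DP replicate 2 (0.229), DP replicate 3 (0.121) or liver replicate 1 (-2.61, adjusted p = 0.665).

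Without the bait-holding bins little passed the test. These pairs held 13302, 25219 and 19042 reads in DP and only 729 and 228 reads in liver, and 3 reads are 0.412% and 1.32% of the liver libraries. Of 1224 pairs tested on their own total, 1 was higher in DP (0.0817%) and 13 were lower (1.06%), and liver had no read in 1108 of them. With TMM normalization or with DESeq2, 7 were higher and 3 lower, and with the total of the whole deposited matrix as library size 9 were higher and none was lower, so the direction rests on the scaling. No pair passed without DP replicate 2, where 3 were higher and 14 lower at an unadjusted p under 0.05.

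The pair that was higher lay within the bin of Trdd2 and Trdj1, with 146, 260 and 167 reads in DP and none in liver, at least 3.18-fold higher (edgeR adjusted p = 0.00667). It passed without liver replicate 2 (adjusted p = 0.0128), but not without liver replicate 1 (0.835) or without DP replicate 1, 2 or 3 (0.103, 0.700 and 0.104). Of the 13 lower pairs, 6 lay within a single bin. The groups did not overlap in 6 of the 13, and the others rested on few reads, with 0 in at least 1 liver library. The largest of them by reads, within chr14:54080001-54085000 just downstream of Trdv4, held 264, 558 and 347 reads in DP and 99 and 44 in liver. That is 198, 221 and 182 of 10000 reads in DP against 1358 and 1930 in liver (log2 fold change -3.03 ± 0.40, edgeR adjusted p = 8.16e-10). The pair within the bin of Trdj2 held 109, 432 and 321 reads in DP and 20 and 24 in liver (log2 fold change -2.19, edgeR adjusted p = 0.00119), and with the total of the whole matrix its fold change turned to 0.34. It did not pass with TMM normalization (-0.28, adjusted p = 0.555) or DESeq2 (-0.66, adjusted p = 0.476), nor without liver replicate 2 (-0.96, adjusted p = 0.736), DP replicate 1 (0.730) or DP replicate 2 (0.700). The pair within chr14:54080001-54085000 did not pass with the matrix total (-0.57, adjusted p = 0.483) or without DP replicate 2 (0.0758).

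Grouped into windows, the reads without the bait-holding bins joined distant parts of the locus in DP. Fragments more than 20 bins apart made up 31.6%, 29.5% and 29.5% of these reads in DP and 5.62% and 3.95% in liver, and pairs within a single bin 26.0%, 31.8% and 30.1% in DP and 65.7% and 69.7% in liver. The groups did not overlap in either (exact permutation p = 0.1). A V region with the Tcrd interval made up 15.5%, 14.2% and 14.3% in DP and 1.10% and 3.51% in liver, and a V region with the Jα array, the combination that Tcra recombination joins, 7.47%, 8.11% and 6.59% in DP and 2.06% and 1.32% in liver. The liver shares rest on few reads, since 3 reads are 0.412% of liver replicate 1 and 1.32% of liver replicate 2. They also rest on few pairs. The 10 pairs with the most reads held 55.1% and 70.6% of these reads in liver and 17.5%, 20.7% and 19.9% in DP. V regions with V regions held 22.0%, 22.4% and 22.8% in DP and 15.1% and 8.77% in liver. Pairs within the Tcrd interval were the largest class in both tissues, with 27.5%, 27.8% and 28.7% in DP and 52.8% and 64.0% in liver, and pairs within the Jα array held 9.11% to 10.8% in DP and 15.6% and 12.7% in liver. These classes did not overlap between the groups either (exact permutation p = 0.1).

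**Figure D5:**
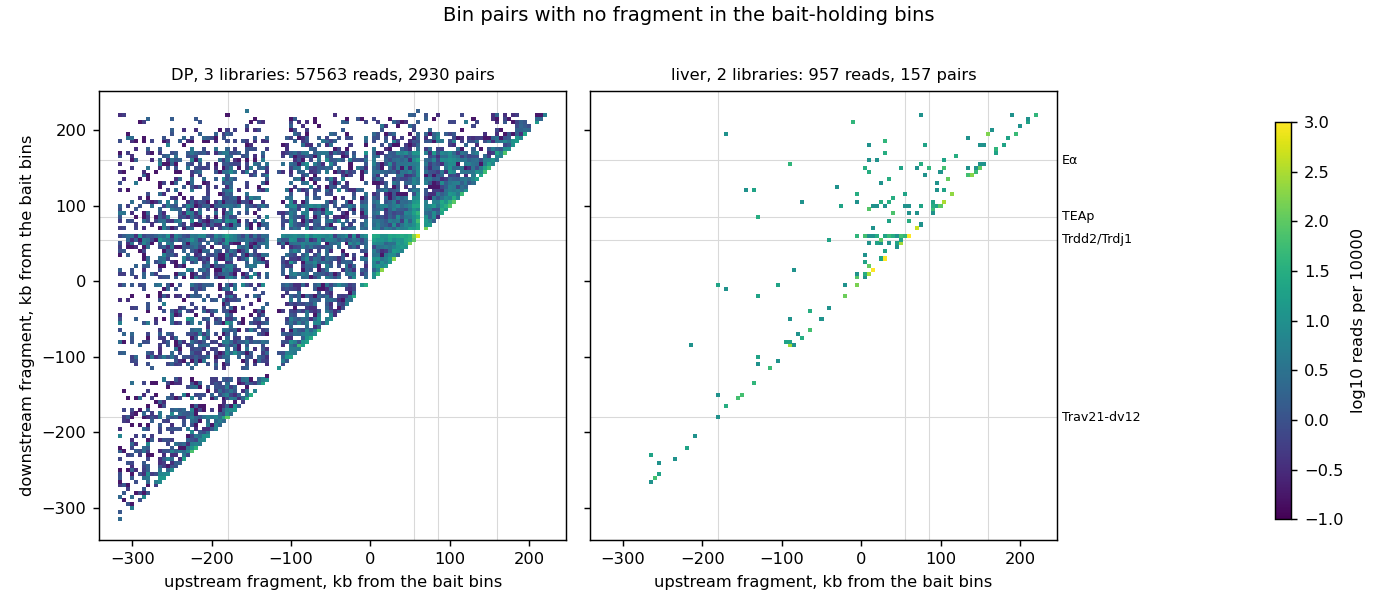
Bin pairs with no fragment in the bait-holding bins, reads summed over the 3 DP libraries (left) and the 2 liver libraries (right), each point a pair placed by the distance of its upstream (x axis) and downstream (y axis) fragment from the bait-holding bins in kb and coloured by log10 of its reads per 10000. DP fills the map away from the diagonal, liver shows few pairs there at its lower depth, and empty lines are bins without reads.

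Between the single elements contacts were spread over many pairs in DP. The bins of Trav17, Trav18, Trav21-dv12, Trdv1, Trdv2-2, Trdv3, Trdd2, TEAp, Eα and the bin between Trdj1 and Trdj2 form 45 pairs of different elements. Reads were found in 43 of them in at least 1 DP library, in 25 of them in all 3 DP libraries, and in 1 of them in liver. Over all pairs without the bait-holding bins, 1490, 1400 and 1866 were occupied in DP and 135 and 42 in liver. Liver had no read in 1108 of the 1224 such pairs tested (90.5%). At this depth the number of occupied pairs cannot show a difference particular to these elements. Together these pairs held 431, 1122 and 837 reads in DP, or 3.24%, 4.45% and 4.40% of the reads without the bait-holding bins, and 2 and 2 reads in liver, or 0.274% and 0.877%. The liver reads all joined Trdd2 with the bin between Trdj1 and Trdj2, its neighbour, which in DP held 158, 437 and 320 reads.

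With 1 fragment on each side of the bait, Trav21-dv12 met the bin between Trdj1 and Trdj2 in 29, 34 and 48 DP reads and Trdd2 in 11, 55 and 1. On the V side alone, Trav21-dv12 met Trdv3 in 30, 48 and 36 reads. TEAp met Eα in 0, 2 and 2 DP reads, and Trav17 met TEAp in none. Read numbers for single pairs thus varied widely between DP libraries, as in the pair of Trav21-dv12 with Trdd2, and copies of 1 ligated molecule could not be told from separate molecules.

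The share of reads without the bait-holding bins that touched a single element was also compared. The bin of Trav21-dv12 took part in 4.05%, 3.98% and 3.78% of them in DP and in 0.549% and 0% in liver (4 and 0 reads). For Trdv1 the DP libraries were less even, at 1.47%, 2.10% and 1.47%. Trdd2 took part in 6.85%, 8.24% and 7.70% in DP and 1.23% and 4.82% in liver. The bin between Trdj1 and Trdj2 took part in 15.5%, 17.4% and 18.6% in DP and 15.6% and 18.0% in liver, where the groups overlapped (exact permutation p = 0.8). Liver had no such read at Trav17, Trav18, Trdv1 or Trdv3, which at its depth allows a share of up to 0.412% in liver replicate 1 and 1.32% in liver replicate 2. The DP shares at Trav17, between 0.857% and 0.952%, lie below the limit of liver replicate 2, so for that library a difference at Trav17 was not detectable at this depth.

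Bins with and without the letters CCNNNAGNNGGC were compared by their counts. More than 50 kb upstream of the bait, 14 of 19 bins with the pattern and 21 of 32 bins without it were higher in DP, with median log2 fold changes of 1.44 and 1.17. Downstream of the bait, 1 of 16 bins with the pattern and 6 of 29 without it were higher, and 8 and 10 were lower. The bins of Trav17, Trav18, Trav21-dv12 and Trdv1 shown above hold the pattern on the plus strand and were higher in DP, and the bin of TEAp holds it on the minus strand and was lower. Other bins went the other way. Those that begin at chr14 positions 54050001, 54080001 and 54085001 hold it on the plus strand and were lower in DP. Those that begin at 53750001, 53795001, 53855001 and 53885001 hold it on the minus strand and were higher. Strand was not tested. Trdd2 and Eα, also higher in DP, hold no match in their bins.

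The share of reads inside the region was close between the tissues, and the classes outside it differed. The deposited matrices reach to chr14:55030000, and the region held 85.9%, 87.6% and 87.1% of their reads in DP and 87.2% and 86.4% in liver, with overlapping ranges. Reads with 1 fragment in the bait-holding bins and 1 outside the region made up 10.2%, 9.46% and 9.36% in DP and 11.8% and 12.7% in liver, and reads with both fragments outside 1.58%, 1.28% and 1.42% in DP and 0.743% and 0.711% in liver. In both classes the groups were apart (exact permutation p = 0.1).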

How the data were processed

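3C-HTGTS of the INT2 bait was analysed in 3 DP thymocyte and 2 liver libraries. The deposited counts are whole numbers of reads per pair of 5 kb bins of chromosome 14 (mm10), which the authors made after trimming, alignment (Bowtie2 2.4.5, per the submitters' processing notes) and selection of reads with 2 fragments beyond the bait. They are not normalized. The authors' methods describe no removal of PCR copies, although they speak of unique reads, so the number of distinct molecules per pair is unknown. A second deposited count file, held for DP alone, gave the same count for 73.5% to 74.1% of occupied pairs, placed 2.99% to 3.75% of reads in another pair, and labels its bins shifted by part of a bin, so positions are good to about a bin. Scaled files, reads and other baits were not used.

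Bin pairs (all, then without the bait-holding bins) and partner bins whose counts added up to 10 or more in the 5 libraries were tested with edgeR 4.0.16 (quasi-likelihood) in R 4.3.3, taking as library size all reads of that set of pairs before the filter, with Benjamini-Hochberg adjustment. Shares were compared with exact two-sided permutation tests, and adjusted over the elements their smallest p of 0.1 became 0.115. The script was tested on simulated data. Alternatives were TMM, DESeq2 1.42.0, count filters of 1 and 30, 10 kb bins, the total of the whole matrix (about 2 Mb, used in place of the chromosome's total), other bait-holding bins, pairs within 1 bin left out, each library left out, and a replicate block. Genes are from GENCODE vM21, and windows of TEAp and Eα are inferred from bait primers. The text names bins of Tcra, Tcrd and Dad1 genes, and up to 5 bins or pairs per direction with the largest fold change that passed and did not overlap. These members and lists were chosen with earlier results of these data known. Shares and permutation tests were computed in Python 3.11.15 with pandas 2.3.3 and numpy 2.4.6, the counting interval used scipy 1.17.1 and plots matplotlib 3.10.9.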

Additional observations from a re-analysis of the deposited data

Results flagged for a closer look

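A second count file covers all of chromosome 14 for the DP libraries and was not used in the comparisons, since none was held for liver. In it, 11.06%, 10.63% and 10.98% of the reads of DP replicates 1 to 3 have a fragment outside the span of the bin-pair matrices, which is above the limit that a count of 0 allows. Of these reads, 73.8% to 79.1% have 1 fragment in the bait-holding bins, and 41.3% to 44.6% join them to sequence downstream of the span and 29.2% to 31.6% to sequence more than 1 Mb upstream of it. No liver value could be set beside them.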

How the results depend on the processing

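Depth limits the liver side: 729 and 228 liver reads lie outside the bait-holding bins, no removal of PCR copies is described, and 1241 of 1506 pairs had no liver read. The causes of the changes below were not tested. Over all bin pairs, lower pairs numbered 37 with TMM and with DESeq2 and 30 without pairs within 1 bin, higher and lower pairs 53 and 6 with 10 kb bins, higher pairs 53 with DESeq2, and leaving out a library gave 0 to 83 higher and 0 to 15 lower pairs (8 without DP replicate 3). Without the bait-holding bins, higher and lower pairs numbered 7 and 3 with TMM and with DESeq2, 0 and 4 with at least 30 counts, 9 and 0 with the matrix total, 0 and 5 with 10 kb bins, 0 and 7 without pairs within 1 bin, and 0 to 2 and 0 to 13 with a library left out. The pairs within chr14:54095001-54100000 and within the Trdj2 bin turned to log2 fold changes of 0.11 and 0.34 with the matrix total. Partner bins numbered 27 higher with DESeq2, and 31 to 44 higher and 16 to 25 lower with a library left out.

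Same-numbered libraries correlated at -0.159 and -0.221 in their deviations, with 2 such pairs and nothing in the labels that ties them, so they share only a number. A replicate block gave 46 higher and 7 lower of all pairs, 0 and 4 without the bait-holding bins, and 17 and 10 partner bins, and the share of reads in the region differed by -0.042 points.

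The following differences in share, DP minus liver in percentage points, changed sign. With each occupied pair counted a single time they were -24.1 for bait and upstream, -0.56 for both downstream, -4.51 and -5.84 for partners 11 to 20 bins upstream and downstream, -14.7 for partners over 20 bins upstream, 1.31 for distal Jα and -0.88 for the downstream flank among partners, and, among reads without the bait-holding bins, -2.43 for Tcrd with Jα, -0.18 for Tcrd with Eα, -0.16 for Tcrd with the downstream flank, 0.038 for Eα with that flank and -8.90 for fragments 1 to 2 bins apart. Without pairs within 1 bin they were -1.19 for partners 11 to 20 bins downstream, -5.15 for Tcrd with Jα, -0.75 for Tcrd with the downstream flank and -11.2 for fragments 1 to 2 bins apart. Trac differed by 0.053 as a share of the region. With a library left out, signs turned for partners 3 to 10 bins downstream (-1.15 to 0.53), Traj1 (-0.39 to 0.045), Trac (-0.20 to 0.18), Eα with the downstream flank (-1.77 to 0.43), that flank with itself (-0.46 to 0.14) and the share of reads in the region (-0.35 to 0.55). Counting pairs a single time gave no value for single bins, and 10 kb bins none for named pairs. The chromosome's total was not run, since it was held for DP alone.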
